A study of Mus musculus with 12 samples.

Results

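The ion, bicarbonate and metal solute carriers are the transporters that move bicarbonate, protons, sodium, calcium, potassium, chloride, phosphate, magnesium and zinc across the membranes of brain cells. They were taken as all gene symbols of the families Slc4, Slc8, Slc9, Slc12, Slc20, Slc24, Slc26, Slc30, Slc34, Slc39 and Slc41 in the deposited table, apart from 2 symbols of the Slc4 family that were left out, which gave 81 of 21937 genes. No measured value entered that choice. The 81 genes fell into 18 bicarbonate and anion transporters (Slc4, Slc26), 9 sodium/calcium exchangers (Slc8, Slc24), 10 sodium/proton exchangers (Slc9), 9 cation-chloride cotransporters (Slc12), 24 zinc transporters (Slc30, Slc39), 8 phosphate and magnesium transporters (Slc20, Slc34, Slc41), and 3 adaptor or scaffold proteins (Slc9a3r1, Slc9a3r2, Slc4a1ap) whose symbols belong to these families although they carry no ion.

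The study purified a light membrane fraction enriched for myelin from whole brains of male c57Bl6/N wild-type mice and sequenced its RNA at 4 ages. The groups are postnatal day 18 (P18), postnatal day 75 (P75), 6 months and 24 months, each with 3 of the 12 libraries, and age is the only difference between them that the labels give. Each library of the 6-month group came from the brain of 1 mouse, and how many mice stand behind a library of the other ages is not given in the sources used here, so p-values measure the spread between libraries. The fraction is not a sorted cell population, and RNA of other brain cells that sediments with it is measured together with the RNA of oligodendrocytes, the cells that make myelin.

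Myelin is a stack of membrane layers wrapped around an axon, with narrow strips of cytoplasm that run through it. Each impulse of the axon shifts sodium, potassium and protons across the membranes on both sides of the small space between axon and sheath. Secondary active carriers use the sodium gradient to remove calcium and acid, while chloride, phosphate, magnesium and zinc have carriers of their own. Myelin basic protein binds zinc, and magnesium and phosphate serve ATP-dependent enzymes in every cell. Several of these carriers are known best from other cells: Slc12a5 from neurons, Slc4a4 and Slc39a12 from astrocytes, and Slc4a10 from neurons and the choroid plexus.

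The libraries held 20299052 to 27214385 reads on genes, and 1 read was worth a normalized read count of 0.812 to 1.19. All 10 oligodendrocyte and myelin markers were detected, and Mbp, the gene of myelin basic protein, took 9.47% to 20.8% of the reads at P18 and 4.76% to 8.48% at the later ages. Markers of other cells were present too. The summed normalized read count of 15 neuronal markers was 202356 to 244492 at P18, 234929 to 265658 at P75, 238642 to 250847 at 6 months and 225165 to 238894 at 24 months. That of 11 astrocyte markers ranged from 99409 to 119200.5 over all libraries, both extremes at P18. The 11 microglial markers summed to 5301 to 5744 at P18 and 11623 to 14587 at 24 months. Of these markers 10 rose over this span, beside 34.7% of all genes tested. The part of the microglial markers in the rises of the carriers was not tested. P18 replicate 3 stood apart from the other libraries of its age, with Mbp at 9.47% of reads against 15.1% and 20.8%, a neuronal sum of 244492 against 213682 and 202356, and an astrocyte sum of 99409 against 119200.5 and 118891. The astrocyte markers Gfap, Aqp4, Gja1, Slc1a2 and Slc1a3 were lowest of the age in this library. Aldh1l1, Gjb6, Aldoc, Fgfr3, Itga7 and Hgf were not. In such a bulk fraction, fewer cells of a type and less RNA per cell cannot be told apart.

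Transcripts of most carriers were more abundant in the myelin fraction of older mice than at P18. Of the 81 genes 67 reached a mean normalized read count of 10 over the 12 libraries and were tested, 50 exceeded 100 and 21 exceeded 1000. A change was called at an adjusted p under 0.1 (limma, Benjamini-Hochberg over all 14634 genes tested), and log2 changes refer to log2(normalized read count + 1), given with their standard error (±). From P18 to P75, 43 of the 67 rose and 4 fell, where 48.8% of all genes tested were called, 25.9% up and 22.9% down. From P75 to 6 months 44 rose and 6 fell, with 60.6% of all genes called, 31.2% up and 29.4% down. Between 6 and 24 months 15 rose and 3 fell, with 29.3% of all genes called, 16.6% up and 12.7% down, so that the members were called about as often as other genes in this step. The median log2 change of the members was 0.45, 0.42 and 0.07 in these steps, beside 0.015, 0.0051 and 0.028 over all genes tested. Of the 10 oligodendrocyte and myelin markers 8 fell from P18 to P75, with a median log2 change of -1.12. Their part in the rises of the carriers was not tested.

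The mean level was lowest at P18 for 55 of the 67 members (82.1%), as it was for 33.6% of all genes tested, and highest at 24 months for 39 members (58.2%), beside 24.7% of all genes. The most frequent course was a rise to P75, a further rise to 6 months and no call after that, found for 21 members and 6.85% of all genes tested. Another 14 members rose only in the step from P75 to 6 months (8.89% of all genes). A rise in each of the 3 steps was called for 7 members: the phosphate transporter Slc20a1, the zinc transporters Slc30a6, Slc39a2 and Slc39a6, the bicarbonate transporter Slc4a10, the calcium exchanger Slc8a1 and the endosomal proton exchanger Slc9a9 (2.28% of all genes tested). For Slc30a6 the second call did not hold without P75 replicate 1 or 2 or 6-month replicate 1 (adjusted p 0.117 to 0.144), nor the third without 6-month replicate 2 or 24-month replicate 2 or 3 (adjusted p 0.136 to 0.145). Slc26a1 and Slc4a2 had no call in any of the 3 steps, beside 18.2% of all genes.

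Few of these changes were large within a step. Over 2-fold with a call, 4 members rose and 1 fell from P18 to P75 (2.82% and 1.73% of all genes). They were Slc4a11, Slc9a4, Slc34a3 and Slc39a4 up and the scaffold Slc9a3r2 down. From P75 to 6 months 5 rose and 1 fell (5.3% and 4%). Among them were the calcium exchangers Slc24a3 and Slc24a4, the magnesium carrier Slc41a2 and the Golgi exchanger Slc9a7 up, and the zinc importer Slc39a5 down. Between 6 and 24 months only Slc4a11 passed 2-fold, upward (1.22% of all genes up and 0.465% down). The 3 libraries of the earlier age did not overlap those of the later age for 39, 49 and 24 members in the 3 steps, beside 47.7%, 63.1% and 43.5% of all genes.

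Leaving out P18 replicate 3 gave 41 members up and 3 down from P18 to P75, close to the 43 and 4 with all libraries. The count between 6 and 24 months moved more. It was 11 without 6-month replicate 1, 7 without 6-month replicate 2 and 7 without 24-month replicate 2, and highest, at 23, without P18 replicate 3. Only 4 of its 18 calls held in every fit that left out 1 library, compared with 34 of 47 from P18 to P75 and 39 of 50 from P75 to 6 months. Those 4 were Slc4a7, Slc30a5, Slc39a2 and Slc39a6, of which Slc4a7, Slc30a5 and Slc39a6 are named after their values were seen. Scaling all libraries to the same total in place of the deposited size factors left 6 up and 3 down between 6 and 24 months. It also shifted the median change of all genes from P18 to P75 to 0.14 on the log2 scale and that of the members to 0.57. Under this scaling the calls of Slc4a3, Slc4a10, Slc8a1, Slc9a9, Slc20a1 and Slc39a5 between 6 and 24 months were lost (adjusted p 0.103 to 0.273). So were those of Slc26a6, Slc9a3r1 and Slc4a1ap from P75 to 6 months (adjusted p 0.113 to 0.137) and of Slc4a1ap from P18 to P75 (adjusted p = 0.442).

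**Figure D1:**
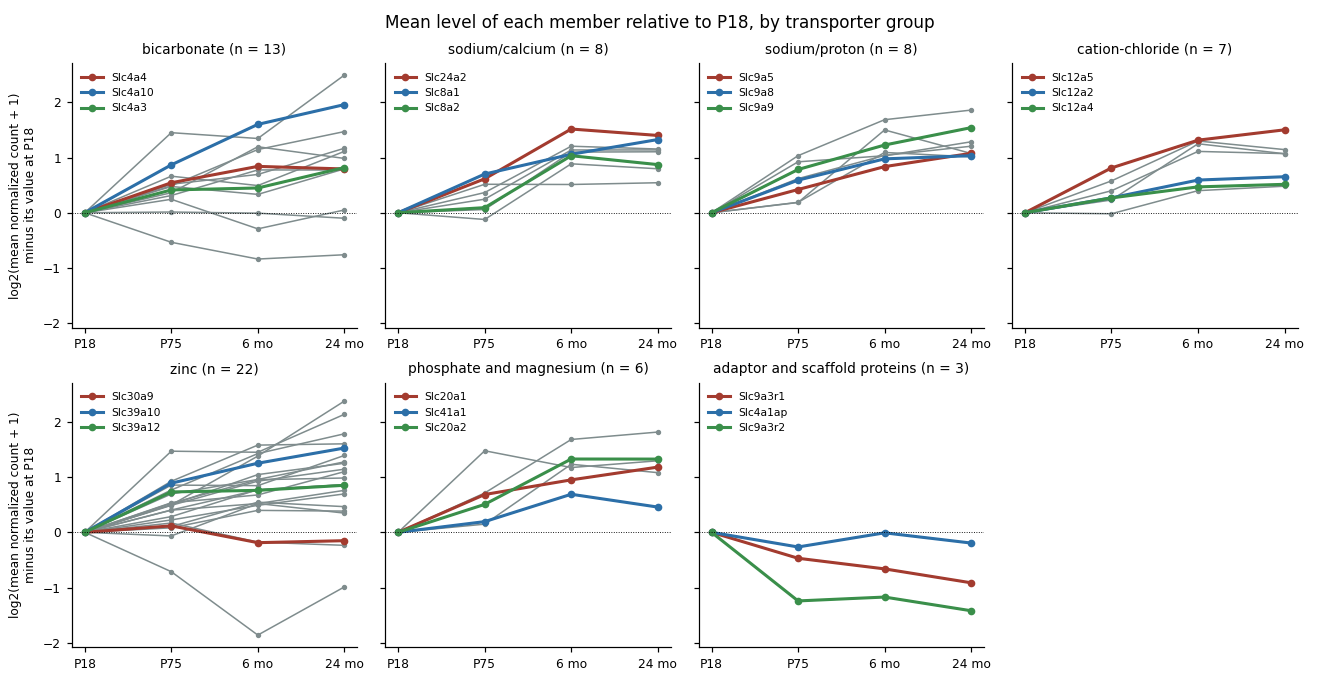
Mean level of each tested member relative to P18, on the log2(mean normalized read count + 1) scale (vertical axis), at the 4 ages (horizontal axis), in 1 panel per transporter group, with 3 members of each group in colour. Most lines of the carrier panels lie above 0 from P75 on and flatten after 6 months, while the adaptors Slc9a3r1 and Slc9a3r2 lie below 0 at each later age.

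**Figure D2:**
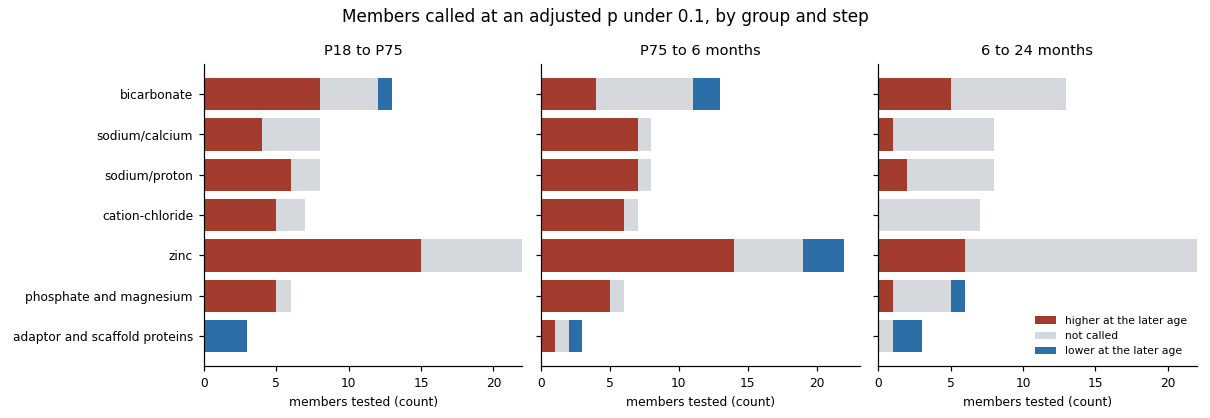
Number of tested members (horizontal axis) in each transporter group that were higher at the later age, not called, or lower at the later age, at an adjusted p under 0.1, in the 3 consecutive steps. The share of members higher at the later age is large in the first 2 panels and small in the last, where 15 of 67 members rose, and no cation-chloride cotransporter was called there.

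Cation-chloride cotransporters set the chloride concentration of a cell: Slc12a2 (NKCC1) brings chloride in with sodium and potassium, and carriers such as Slc12a5 (KCC2) let it out with potassium. Of the 7 members tested, 5 rose from P18 to P75 and 6 from P75 to 6 months, with median log2 changes of 0.28 and 0.50. Of all genes tested 25.9% and 31.2% rose in these steps. For the first step edgeR called 3 and DESeq2 4 of the 7, and only 1 of the 5 calls of limma held in every fit that left out 1 library, while both tools also called 6 in the second step. Between 6 and 24 months limma called 0 of the 7, edgeR and DESeq2 on the recovered reads called 0 as well, and 0 had an unadjusted p under 0.05. From P18 to 24 months all 7 rose (background 34.7% of all genes up).

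Slc12a5 (chr2:164786316-164825228, plus strand, mm9) had the highest level per kilobase of exon in the group, 1056 normalized reads per kb, against a median of 121 over the 14272 tested genes with a known exon length. Its normalized read count was 3161, 3548 and 4549 at P18 and 6759, 6676 and 6337 at P75. At 6 months it stood at 10099, 8996 and 8917, and at 24 months at 9607, 10514 and 11775. Each P75 library lay above every P18 library and each 6-month library above every P75 library, while the 6- and 24-month values overlapped. It rose from P18 to P75 (0.83 ± 0.12, adjusted p = 6.04e-05) and from P75 to 6 months (0.50 ± 0.12, adjusted p = 0.00225), and at 24 months it was 2.86 times its P18 level.

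Slc12a2 had smaller changes. Its counts were 2472, 2273 and 1646 at P18 and 2428, 2283 and 2999 at P75. The values were 3490.2, 3058 and 3089 at 6 months and 3133, 3497 and 3419 at 24 months. P18 overlapped P75. The rise from P18 to P75 (0.28 ± 0.13, adjusted p = 0.0997) was just within the threshold. It was 0.11 without P18 replicate 3, and the call did not hold without P18 replicate 3, P75 replicate 1 or 3, any single 6-month library or any single 24-month library (adjusted p 0.105 to 0.452). It was also lost with the replicate number as a block (adjusted p = 0.123), and with a pseudocount of 0.5, no filter, only the 2 ages compared, edgeR or DESeq2 (adjusted p 0.1 to 0.178). From P75 to 6 months it rose by 0.33 ± 0.13 (adjusted p = 0.0457). This did not hold without P75 replicate 1 or 2 or 6-month replicate 1 (adjusted p 0.122 to 0.176). Over the whole span it gained 0.67 on the log2 scale (adjusted p = 0.000321).

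Exons of Slc12a5 overlap those of the annotated gene Gm11459, and whether reads there were counted by strand is not given in the sources used here. The members Slc12a4, Slc12a7, Slc12a8 and Slc12a9 had means of 21.4 to 344 at P18 and 46.1 to 493 at 24 months.

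The ratio of Slc12a5 to Slc12a2, each per kilobase of exon, is a common way to set chloride export against import. It was 1.16, 1.42 and 2.51 in the P18 libraries, 2.53, 2.66 and 1.92 at P75, 2.63, 2.67 and 2.62 at 6 months and 2.79, 2.73 and 3.13 at 24 months. The 3 libraries of 6 months lay close together, the P18 libraries were far apart, and P18 replicate 3 had the highest value of its age. The ratio was chosen after the values of both genes were seen and was not tested.

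Neuronal markers moved with these genes in part. From P18 to P75, 4 of 15 neuronal markers rose and 4 fell, from P75 to 6 months 11 rose and 3 fell, and between 6 and 24 months 4 fell and the other 11 were not called. The shares called were 53.3%, 93.3% and 26.7%, beside 48.8%, 60.6% and 29.3% of all genes tested. The summed level of the neuronal markers overlapped between P75 and 6 months, as given above. Snap25 made up a large part of this sum and went from a mean of 141430 to 88328. Syt1, among the markers that went up, went from 3851 to 19472, so the sum does not stand for most of the markers. The part of neuronal RNA in the changes of Slc12a5 was not tested.

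Of 7 tested members of the WNK-SPAK kinase pathway, which phosphorylates Slc12 carriers and switches chloride import on and export off, 1 rose and 1 fell from P18 to P75 and 2 rose from P75 to 6 months. The share called was 28.6% in each step, beside 48.8% and 60.6% of all genes tested. The kinase Oxsr1 (OSR1) was at 1352, 2096 and 622 at P18 and 5109, 2680.4 and 2703 at P75. It went on to 5969.8, 9529 and 6041 at 6 months and 8179.8, 7774 and 7177 at 24 months. It rose in both steps (1.46 ± 0.33 and 1.07 ± 0.33, adjusted p = 0.00198 and 0.0111), although its libraries spread widely within an age. Stk39 (SPAK) rose from P75 to 6 months (0.23 ± 0.10, adjusted p = 0.0531), Wnk2 fell from P18 to P75 by 0.24 ± 0.11 (adjusted p = 0.0799), and Wnk4 rose between 6 and 24 months (0.49 ± 0.15, adjusted p = 0.0305).

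**Figure D3:**
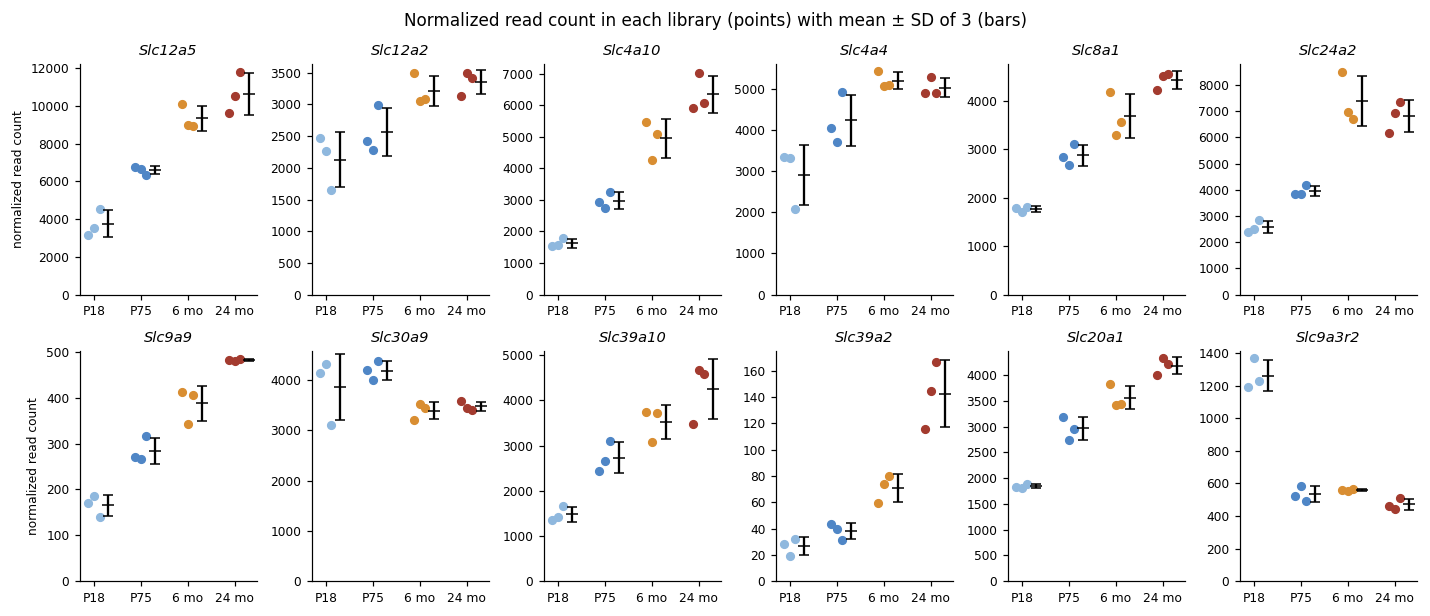
Normalized read count in each library (points, vertical axis starting at 0) at the 4 ages (horizontal axis) for 12 members, with the mean ± SD of 3 libraries beside the points. Slc12a5, Slc4a10, Slc8a1, Slc9a9 and Slc20a1 climb from P18 on, Slc24a2 takes its larger step between P75 and 6 months, Slc30a9 drops from P75 to 6 months, and Slc9a3r2 is highest at P18.

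**Figure D4:**
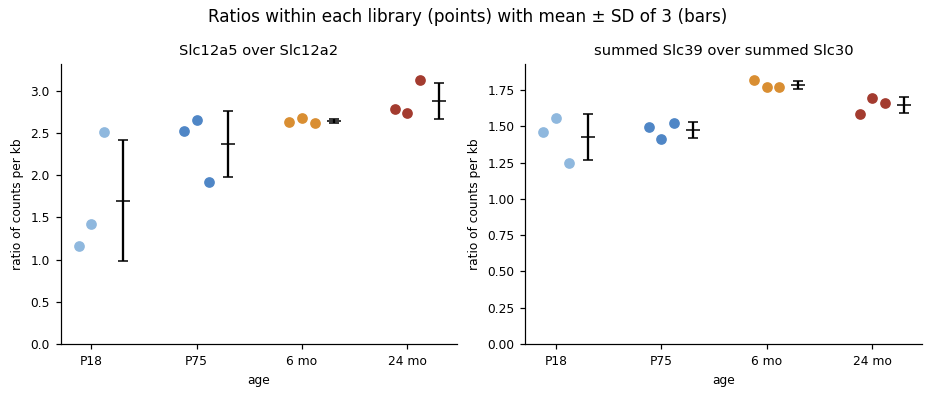
Ratios of normalized reads per kilobase of exon within each library (points, vertical axis starting at 0) at the 4 ages, with the mean ± SD of 3 libraries. Slc12a5 over Slc12a2 runs from 1.16 in a P18 library to 3.13 in a 24-month library, and the summed Slc39 importers over the summed Slc30 exporters are highest at 6 months.

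Bicarbonate carriers buffer the pH of cells and of the space around axons: Slc4a4 (NBCe1), Slc4a7, Slc4a8 and Slc4a10 bring bicarbonate in with sodium, Slc4a2 and Slc4a3 exchange it for chloride, and Slc26 proteins carry other anions as well. Of the 13 members tested 8 rose and 1 fell from P18 to P75, 4 rose and 2 fell from P75 to 6 months, and 5 rose between 6 and 24 months. Called were 69.2%, 46.2% and 38.5% of these members in the 3 steps, beside 48.8%, 60.6% and 29.3% of all genes tested. The second step was below the share of all genes, of which 31.2% rose in it. The group median was 0.48, 0.04 and 0.35 in the 3 steps.

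Slc4a10 (chr2:61884519-62164787, plus strand, mm9) had the largest rise from P18 to 24 months of the 4 sodium-driven carriers and the highest level per kilobase of the group, 619. It was at 1542, 1556 and 1794 at P18 and 2917, 2750.0 and 3260.1 at P75. The 6-month libraries held 5482, 4259.7 and 5103, and the 24-month libraries 5925, 7024 and 6077. No age overlapped the next, and the 24-month mean was 3.89 times the P18 mean (log2 1.96 ± 0.11, adjusted p = 5.58e-10). The steps were 0.87, 0.73 and 0.36 on the log2 scale with adjusted p of 1.62e-05, 3.88e-05 and 0.0284. The last was not called without 6-month replicate 2 or 24-month replicate 2 (adjusted p 0.134 to 0.135).

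Slc4a4, at 401 per kilobase, had counts of 3329.6, 3305 and 2068 at P18 and 4039.5, 3717 and 4928 at P75. At 6 months it stood at 5428, 5072 and 5081, and at 24 months at 4907, 5286 and 4890.3. P18 replicate 3, the library with the lowest astrocyte sum, had the lowest value, and that sum was lower through only part of the markers. The rise from P18 to P75 was 0.57 ± 0.15 (adjusted p = 0.00583). The rise from P75 to 6 months (0.31 ± 0.15, adjusted p = 0.0915) was not called with the replicate number as a block (adjusted p = 0.106). Nor did it hold without P75 replicate 1 or 2, any single 6-month library or any single 24-month library (adjusted p 0.106 to 0.29). The 11 astrocyte markers summed to 106513 to 112824 at P75 and 101630.2 to 113792 at 6 months. Their part in the level of Slc4a4 was not tested.

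Slc4a8, a neuronal sodium-driven exchanger, rose from 542 ± 43.8 at P18 to 697 ± 62.7 at P75 and 1242 ± 108 at 6 months (log2 0.36 ± 0.10 and 0.83 ± 0.10, adjusted p = 0.009 and 6.58e-06), and was at 1073 ± 104 at 24 months (mean ± SD, n = 3). The chloride/bicarbonate exchanger Slc4a3 rose in the first step (0.43 ± 0.11, adjusted p = 0.00518). It was at 1673 ± 138 and 1714 ± 96.6 at P75 and 6 months and rose again to 2215 ± 81.8 at 24 months (0.37 ± 0.11, adjusted p = 0.0267). The latter was lost without 6-month replicate 1 (adjusted p = 0.102). Slc4a2, the exchanger found in most tissues, had means of 862, 870.3, 858 and 805 at the 4 ages, and its adjusted p ranged from 0.547 to 0.876 over the 3 steps.

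The members of this group that fell were Slc26 anion exchangers. Slc26a6 went from 165, 193 and 193 at P18 to 134, 127 and 118 at P75, without overlap (-0.53 ± 0.13, adjusted p = 0.00487). It was at 114, 95.0 and 98.3 at 6 months (-0.31 ± 0.13, adjusted p = 0.0666), and this second fall did not hold without P75 replicate 1 or 2 or 6-month replicate 2 or 3 (adjusted p 0.124 to 0.187). Slc26a4 (pendrin) was at 86.2, 94.6 and 79.6 at P75 and 54.4, 63.9 and 60.3 at 6 months (-0.54 ± 0.15, adjusted p = 0.00691). At the low end Slc4a11, a proton carrier of epithelia, was at 4.75, 2.26 and 11.1 at P18, 19.04, 22.2 and 13.3 at P75, 9.75, 21.3 and 19.5 at 6 months and 49.5, 34.6 and 31.5 at 24 months. It rose in the first and last steps (1.63 ± 0.42 and 1.19 ± 0.42, adjusted p = 0.00544 and 0.0556), and the later call was lost without 6-month replicate 1 or 24-month replicate 1 or 2 (adjusted p 0.112 to 0.229).

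Choroid plexus epithelium also expresses bicarbonate carriers, and of its 7 markers 5 rose and 1 fell from P18 to P75, 6 rose from P75 to 6 months and 1 rose between 6 and 24 months. The shares called were 85.7%, 85.7% and 14.3%, beside 48.8%, 60.6% and 29.3% of all genes tested. The 7 choroid plexus markers summed to 12669.6 to 14751 at P18, 23594 to 28918 at P75, 27609 to 31953 at 6 months and 42806 to 47442 at 24 months. Most of each sum was Ttr, with means of 28731 at 6 months and 44404 at 24 months, so the sums mainly follow this 1 gene. All 7 choroid plexus markers rose from P18 to 24 months, beside 34.7% of all genes tested. The sums of the 15 neuronal markers overlapped between neighbouring ages, as given above, although 11 of these markers rose and 3 fell from P75 to 6 months. The part of either marker list in the changes of Slc4a10 and the other bicarbonate carriers was not tested.

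Active carbonic anhydrases make the bicarbonate that these carriers move. The 11 genes of the family that were tested include Car8, Car10 and Car11, whose products lack this activity. Of the 11, 5 rose from P18 to P75, 7 rose and 2 fell from P75 to 6 months, and 1 rose between 6 and 24 months. The shares called were 45.5%, 81.8% and 9.09%, beside 48.8%, 60.6% and 29.3% of all genes tested. Car2, the form best known from oligodendrocytes, rose from 7767 ± 1809 to 11850.4 ± 963 (0.63 ± 0.14, adjusted p = 0.00158) and then fell to 9249 ± 362 (-0.36 ± 0.14, adjusted p = 0.0383). The membrane-bound Car12 and Car4 rose in both early steps, Car12 from 90.4 to 169.8 and 302, and Car4 from 397 to 491 and 627.

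Sodium/calcium exchangers use the sodium gradient to drive calcium out of the cytoplasm, with potassium as a further passenger in the Slc24 family. They took their largest step between P75 and 6 months, when 7 of the 8 members tested rose, with a group median of 0.90 on the log2 scale. From P18 to P75 4 rose, with a median of 0.30, and between 6 and 24 months 1 rose, with a median of -0.02. Among all genes tested, 31.2% rose from P75 to 6 months and 25.9% from P18 to P75. Between 6 and 24 months 16.6% of all genes rose, a larger share than of these members. From P18 to P75 48.8% of all genes were called in either direction, close to the share of these members. All 7 calls from P75 to 6 months held in each fit that left out 1 library.

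Slc24a2 (chr4:86629028-86876381, minus strand, mm9), the exchanger of cones and neurons, was at 2402, 2494 and 2858 at P18 and 3843, 3857 and 4174 at P75. The values were 8494, 6971 and 6722 at 6 months and 6175, 6946 and 7351 at 24 months. The ages did not overlap up to 6 months, and the 24-month libraries overlapped those of 6 months. It rose by 0.62 ± 0.10 (adjusted p = 0.000223) from P18 to P75 and by 0.90 ± 0.10 (adjusted p = 4.42e-06) from P75 to 6 months. Slc24a3 overlapped between P18 (1200.2, 1281 and 1522) and P75 (1242, 1323 and 1114) and reached 2696, 2405 and 2302 at 6 months (1.01 ± 0.10, adjusted p = 1.25e-06). Slc24a4, at a mean of 40.6 at P75, rose by a similar log2 change to 84.6 (1.04 ± 0.22, adjusted p = 0.000893).

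Slc8a1 (NCX1, chr17:81785359-82048947, minus strand, mm9) had the highest level per kilobase in the group, 1039, and rose in each step. Its counts were 1791, 1706 and 1803 at P18 and 2845, 2665 and 3109.7 at P75. It went on to 4182, 3300.2 and 3565 at 6 months and 4223, 4522 and 4548 at 24 months. The successive changes were 0.70 ± 0.09 (adjusted p = 2.87e-05), 0.35 ± 0.09 (adjusted p = 0.00432) and 0.27 ± 0.09 (adjusted p = 0.0485). The last call did not hold without 6-month replicate 2 or 3 or 24-month replicate 2 or 3 (adjusted p 0.114 to 0.199). Exons of Slc8a1 overlap those of the annotated gene Gm11096. The neuronal paralog Slc8a2 was at 1105, 1345 and 1857 at P18 and 1684, 1669 and 1240.3 at P75, which overlapped. The 6-month values were 3195, 2796 and 2825 (0.95 ± 0.16, adjusted p = 0.000109). At P18 the highest Slc8a2 value was in replicate 3, the library with more neuronal reads.

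Slc24a6, the mitochondrial calcium exporter, rose from 85.0 ± 11.5 at P75 to 158 ± 9.47 at 6 months (0.90 ± 0.14, adjusted p = 5.31e-05) and is named after its values were seen, as the counterpart of mitochondrial calcium uptake. Of 6 other genes of mitochondrial calcium handling, 1 rose and 1 fell in the same step (33.3% called, beside 60.6% of all genes tested). The pore subunit Mcu, listed as Ccdc109a, went from 63.1, 51.9 and 38.7 to 204, 180.2 and 141 (1.76 ± 0.18, adjusted p = 1.29e-06). The regulator Micu3, listed as Efha2, went from 3799, 4596 and 5095 to 2268, 2208 and 2669 (-0.91 ± 0.11, adjusted p = 6.15e-06).

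Sodium/proton exchangers remove acid at the plasma membrane, as Slc9a2, Slc9a4 and Slc9a5 do, or set the pH of endosomes and the Golgi apparatus, as Slc9a7 and Slc9a9 do. Of the 8 members tested 6 rose from P18 to P75 and 7 from P75 to 6 months, and 2 rose between 6 and 24 months, with group medians of 0.60, 0.44 and 0.17. Of all genes tested 25.9%, 31.2% and 16.6% rose in these steps. All 8 members were more than 2-fold higher at 24 months than at P18 with a call (14.5% of all genes tested).

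The endosomal exchanger Slc9a9 (chr9:94570328-95130864, plus strand, mm9) went from 169.9, 185 and 139.6 at P18 through 272, 265 and 317 at P75 and 412, 344 and 407 at 6 months to 481, 480.1 and 485 at 24 months, 2.93 times the first level (log2 1.55 ± 0.12, adjusted p = 1.44e-08). Each age lay above the one before without overlap. The last of its 3 steps was lost without 6-month replicate 2 or any single 24-month library (adjusted p 0.128 to 0.247).

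At the plasma membrane Slc9a5 rose in both early steps (0.45 ± 0.13 and 0.42 ± 0.13, adjusted p = 0.0129 and 0.0141), from a mean of 299.9 to 536. Slc9a4 was low at P18, with 11.9, 19.2 and 38.2, and reached 44.1, 44.5 and 56.4 at P75 (1.18 ± 0.29, adjusted p = 0.00416). Its next rise (0.66 ± 0.29, adjusted p = 0.0673) did not hold without P75 replicate 1 or 2 or any single 6-month library (adjusted p 0.105 to 0.153). Slc9a7, of the Golgi apparatus, was at 21.0, 15.8 and 14.4 at P75 and 57.7, 30.2 and 43.8 at 6 months (1.28 ± 0.31, adjusted p = 0.00241). For Slc9a2, named because a block ended its call, the rise from P75 to 6 months (0.44 ± 0.21, adjusted p = 0.0882) was not called with the replicate number as a block (adjusted p = 0.104). It was also lost without P75 replicate 2 or 3, 6-month replicate 1 or 3 or 24-month replicate 2 or 3 (adjusted p 0.102 to 0.37).

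The adaptor proteins Slc9a3r1 and Slc9a3r2 fell. These PDZ proteins (NHERF1 and NHERF2) tether Slc9a3 and other membrane proteins to the cytoskeleton through ezrin, radixin and moesin. Slc9a3r2 was at 1192, 1368 and 1227 at P18 and 521, 587 and 491 at P75. The 6-month libraries held 557, 556 and 566, and the 24-month libraries 463, 442 and 508. On the log2 scale it fell by 1.24 ± 0.09 (adjusted p = 1.75e-07) from P18 to P75, and the groups were far apart, at 1263 ± 93.3 and 533 ± 49.1 (mean ± SD, n = 3). Between 6 and 24 months it fell by 0.25 ± 0.09 (adjusted p = 0.0655), which did not hold without any single 6-month library or 24-month replicate 1 or 2 (adjusted p 0.13 to 0.217).

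Slc9a3r1 fell in each step. Its counts were 1666, 1725 and 1558 at P18 and 1197, 1270.2 and 1105 at P75. At 6 months it stood at 967, 1174 and 985, and at 24 months at 859.9, 826 and 939. The changes were -0.47 ± 0.09 (adjusted p = 0.000802), -0.20 ± 0.09 (adjusted p = 0.087) and -0.25 ± 0.09 (adjusted p = 0.0692). The second call did not hold without P75 replicate 1 or 2, 6-month replicate 1 or 3 or 24-month replicate 2 (adjusted p 0.102 to 0.267), nor the third without 6-month replicate 2 or 24-month replicate 1 or 2 (adjusted p 0.159 to 0.286). Slc4a1ap (kanadaptin), an adaptor named for its binding to an anion exchanger, had a small fall (-0.26 ± 0.10, adjusted p = 0.0502) and then a small rise (0.26 ± 0.10, adjusted p = 0.0468). The fall did not hold without P18 replicate 3 or P75 replicate 1 or 3 (adjusted p 0.135 to 0.163), nor the rise without P75 replicate 1 or 3 or 6-month replicate 1 (adjusted p 0.126 to 0.201). Slc9a3 itself did not reach the minimum mean of 10. Among the tested cofactors of Slc9 exchangers, 1 of 6 rose and 1 fell from P18 to P75 (33.3% called, beside 48.8% of all genes tested). Chp2, listed as 2010110P09Rik, rose from 4.75, 6.78 and 5.02 to 20.04, 12.98 and 13.3, and radixin (Rdx) fell from 3016 to 2299.7. The markers of oligodendrocyte precursors also fell from P18 to P75, 4 of 7 with a call and a sum of 3950.4 to 4268 at P18 and 2325 to 2508 at P75. Of the 10 oligodendrocyte and myelin markers 8 fell in this step. Their part in the change of the adaptors was not tested.

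Zinc transporters form opposing families: Slc30 proteins (ZnT) carry zinc out of the cytoplasm, into vesicles or out of the cell, and Slc39 proteins (ZIP) carry it in. All 14 Slc39 genes and 8 of 10 Slc30 genes reached the minimum mean. Of these 22, 15 rose from P18 to P75, 14 rose and 3 fell from P75 to 6 months, and 6 rose between 6 and 24 months. The shares called were 68.2%, 77.3% and 27.3%, beside 48.8%, 60.6% and 29.3% of all genes tested. By family, 10 of 14 importers and 5 of 8 exporters rose from P18 to P75, and 10 of 14 importers and 4 of 8 exporters from P75 to 6 months, when 2 exporters and 1 importer fell.

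Summed per kilobase of exon, the 14 importers stood above the 10 exporters in every library. The sums were not divided by the number of genes, so they do not compare the level of a typical importer and exporter. The ratio of importers to exporters was 1.46, 1.56 and 1.25 at P18, 1.49, 1.41 and 1.52 at P75, 1.82, 1.77 and 1.77 at 6 months and 1.59, 1.69 and 1.66 at 24 months. All 3 values of 6 months lay above all values of the other ages. The ratio was chosen after the values were seen and was not tested.

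Among the importers Slc39a10 (chr1:46864389-46910891, minus strand, mm9) was at 1352, 1416 and 1655 at P18 and 2447, 2652 and 3101 at P75. The values were 3739, 3079 and 3718 at 6 months and 3479, 4681 and 4588 at 24 months. It rose from P18 to P75 (0.89 ± 0.13, adjusted p = 5.02e-05) and from P75 to 6 months (0.36 ± 0.13, adjusted p = 0.0228), the latter with overlapping libraries. Slc39a12, a zinc importer of astrocytes, rose in the first step only (0.75 ± 0.12, adjusted p = 0.000188), from 1343, 1420.3 and 952 at P18 to 1969, 1943 and 2257 at P75, and was at 2098 ± 90.5 and 2235 ± 195 later. P18 replicate 3 again had the lowest value of its age.

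The highest level per kilobase in the zinc group, 703, belonged to Slc30a3 (ZnT3), which loads zinc into synaptic vesicles of neurons and is named for this level after it was seen. Its counts were 873, 938 and 1424 at P18 and 1366, 1599 and 1309 at P75. It went on to 1509.5, 1597 and 1537 at 6 months and 1636, 1810.0 and 2036 at 24 months. P18 replicate 3, the library with more neuronal reads, lay among the P75 libraries and above the other libraries of its age. Slc30a3 rose from P18 to P75 (0.43 ± 0.14, adjusted p = 0.0243), which did not hold without P18 replicate 1 or 2 or P75 replicate 2 (adjusted p 0.101 to 0.124). It had no call in the next steps.

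Slc39a2 rose in each step. Its counts were 28.5, 19.2 and 32.1 at P18 and 43.1, 39.9 and 30.9 at P75. The 6-month libraries held 59.3, 73.7 and 79.8, and the 24-month libraries 116, 145 and 167. The 24-month libraries lay above all others. The change was 0.99 ± 0.22 (adjusted p = 0.00635) between 6 and 24 months, a rise of 1.99-fold, and 0.89 ± 0.22 (adjusted p = 0.00255) from P75 to 6 months. The first step (0.51 ± 0.22, adjusted p = 0.0664) overlapped and did not hold without P18 replicate 2 or P75 replicate 1 or 2 (adjusted p 0.15 to 0.287). This first call was also lost with edgeR, DESeq2, quantile normalization, no filter or only the 2 ages compared (adjusted p 0.103 to 0.145). Exons of Slc39a2 overlap those of Mettl17, and reads of the shared stretch cannot be told apart without strand.

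Slc39a6, whose product is related to Slc39a10, went from 475, 493 and 423 at P18 through 749, 721 and 898 and 1282, 1151 and 1309 to 1546, 1566 and 1686 at 24 months, and no age overlapped the next. It is named after its values were seen, as 1 of the 4 members whose rise from 6 to 24 months (0.36 ± 0.10, adjusted p = 0.0185) held in every fit that left out 1 library. The Golgi exporter Slc30a5, named for the same reason, went from 1106, 1009 and 1195 at 6 months to 1608, 1653 and 1575 at 24 months (0.55 ± 0.09, adjusted p = 0.00118), and from 627, 599 and 615 at P18 to 1025, 1082 and 1226 at P75 (0.85 ± 0.09, adjusted p = 3.02e-06). The bicarbonate carrier Slc4a7, also among the 4, went from 548, 454 and 584 to 703, 784 and 697 (0.47 ± 0.10, adjusted p = 0.00677).

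The zinc transporters that fell from P75 to 6 months were Slc30a9, Slc30a10 and Slc39a5. Slc30a9, a zinc transporter of mitochondria, was at 4142, 4324 and 3112 at P18 and 4191, 3991 and 4374 at P75. At 6 months it stood at 3203, 3526 and 3438, and at 24 months at 3575, 3438 and 3409. Every 6-month library lay below every P75 library (-0.30 ± 0.11, adjusted p = 0.0228), and the P18 values spanned both. Slc39a5 fell from 22.1, 28.7 and 23.2 to 10.6, 12.4 and 8.76 (-1.15 ± 0.31, adjusted p = 0.00551). It rose to 15.8, 15.1 and 29.6 at 24 months (0.82 ± 0.31, adjusted p = 0.0741), a call lost without any single 6-month library or 24-month replicate 3 (adjusted p 0.1 to 0.277). Slc39a4, the intestinal importer, was near the detection limit at P18 with 3.56, 6.78 and 3.01 and rose to 13.03, 20.4 and 8.84 at P75 (1.46 ± 0.38, adjusted p = 0.00561).

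Metallothioneins bind zinc in the cytoplasm, and the zinc sensor Mtf1 switches on metallothionein genes and the exporter Slc30a1 through metal response elements. Mt1, Mt2 and Mt3 fell from P75 to 6 months, when 10 of 14 importers rose. Mt2 was at 13221, 14289.9 and 18049 at P18 and 9643, 14124 and 13438 at P75. The values were 1872, 2737 and 2396 at 6 months and 6017, 4313 and 3646 at 24 months. It fell by 2.41 ± 0.19 (adjusted p = 1.35e-07) from P75 to 6 months and rose by 0.98 ± 0.19 (adjusted p = 0.00307) between 6 and 24 months. Mt1 (-2.08 and 0.87) and Mt3 (-1.46 and 0.53) took the same course with calls in both steps. Mtf1 fell from 715 ± 68.8 to 595 ± 19.8 and 496 ± 17.3 (-0.26 ± 0.09 and -0.26 ± 0.09, adjusted p = 0.026 and 0.0192).

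Slc30a1 and Slc30a10 were chosen for display because of their promoters, after their values were seen. Slc30a1, the exporter of the plasma membrane, rose from 302, 287 and 209.9 at P18 to 358, 336 and 438 at P75 (0.51 ± 0.14, adjusted p = 0.00759). It reached 613, 495 and 544 at 6 months (0.55 ± 0.14, adjusted p = 0.0033), opposite in direction to the metallothioneins in the latter step. Slc30a10, which exports manganese, was at 406, 309.7 and 357 at P75 and 292, 264 and 287 at 6 months (-0.34 ± 0.13, adjusted p = 0.0346). This fall did not hold without P75 replicate 1 or 6-month replicate 2 (adjusted p 0.112 to 0.156). Exons of both overlap those of other annotated genes.

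The core of the metal response element was searched as TGCACNC or TGCGCNC on both strands, overlaps included, in the 250 bases before the RefSeq start of each gene. At least 1 core was found in 21.3% of 27025 promoters and in 9 of the 20 zinc transporter promoters that could be matched (45.0%). There were 3 or more in 1.28% of all promoters and in 1 of these 20 (5.0%). The 3 stretches below run 5′ to 3′ on the plus strand of mm9 from 250 to 21 bases before the RefSeq start (RefSeq table of build GRCm38.p6, placed on mm9 by an exact match), with the cores in capitals. They are shown to set the exporter with 1 core and the exporter with 3 cores beside a metallothionein with 3. The metallothionein Mt1, not shown, had 1 core, the same number as Slc30a1. In Slc30a10 the first capital run holds a pair of cores that overlap on opposite strands.
Slc30a1 (chr1:193730410-193730639, plus strand): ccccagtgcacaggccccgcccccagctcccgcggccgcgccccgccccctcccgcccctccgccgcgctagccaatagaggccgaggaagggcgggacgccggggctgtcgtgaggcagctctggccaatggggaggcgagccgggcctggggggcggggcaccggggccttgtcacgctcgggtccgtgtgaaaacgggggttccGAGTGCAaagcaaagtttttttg
Slc30a10 (chr1:187278477-187278706, plus strand): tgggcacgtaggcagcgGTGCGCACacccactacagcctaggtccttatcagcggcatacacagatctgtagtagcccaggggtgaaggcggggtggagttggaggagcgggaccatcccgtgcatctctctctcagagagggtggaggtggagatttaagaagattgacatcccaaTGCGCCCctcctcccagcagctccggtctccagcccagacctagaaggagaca
Mt2 (chr8:96696268-96696497, plus strand): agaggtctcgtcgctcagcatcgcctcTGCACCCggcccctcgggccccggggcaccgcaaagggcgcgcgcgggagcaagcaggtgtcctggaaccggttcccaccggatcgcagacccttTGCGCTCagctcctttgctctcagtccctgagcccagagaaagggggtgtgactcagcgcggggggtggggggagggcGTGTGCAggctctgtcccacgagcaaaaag

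Whether the number of cores goes with the change in level was not tested. A match of these letters describes the sequence and does not show that Mtf1 binds there.

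**Figure D5:**
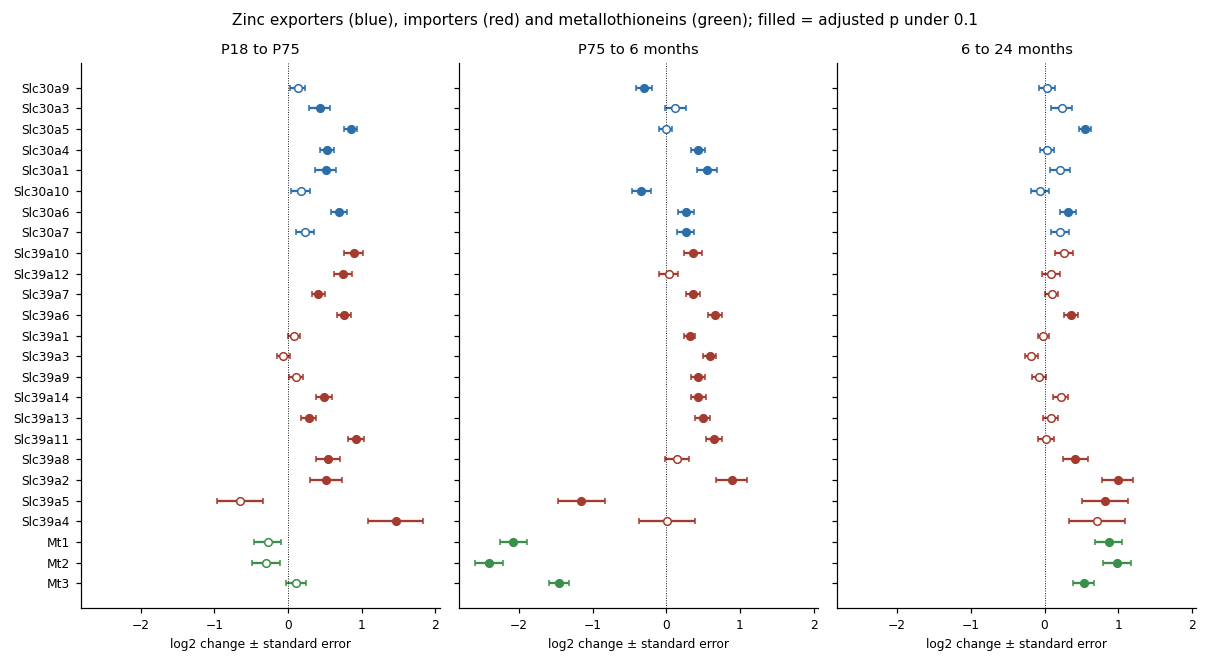
Log2 change ± standard error (horizontal axis, dotted line at 0) of the 22 tested zinc transporters and 3 metallothioneins in the 3 consecutive steps, with filled points for an adjusted p under 0.1. Most transporters lie right of 0 in the first 2 panels, while Mt1, Mt2 and Mt3 lie at -2.08, -2.41 and -1.46 from P75 to 6 months and right of 0 in the last panel.

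Slc20a1 and Slc20a2 (PiT1, PiT2) import phosphate with sodium, Slc34 proteins do so in epithelia, and Slc41 proteins carry magnesium. Of the 6 members tested, 5 rose from P18 to P75 and 5 from P75 to 6 months, with medians of 0.59 and 0.66, and all 6 rose from P18 to 24 months. Of all genes tested 25.9%, 31.2% and 34.7% rose in these comparisons.

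Slc20a1 (chr2:129024500-129037352, plus strand, mm9) was at 1835, 1803 and 1892 at P18 and 3189, 2748 and 2954 at P75. It went on to 3821, 3417 and 3448 at 6 months and 3999, 4326 and 4215 at 24 months. Each P75 library exceeded each P18 library, and each 6-month library exceeded each P75 library (0.68 ± 0.08 and 0.27 ± 0.08, adjusted p = 1.14e-05 and 0.0113). The rise after 6 months (0.23 ± 0.08, adjusted p = 0.0546) did not hold without 6-month replicate 2 or 3 or 24-month replicate 2 or 3 (adjusted p 0.115 to 0.174). Slc20a2, mutated in familial brain calcification, rose from 412, 472 and 432 at P18 to 625, 558 and 688 at P75 and 1197, 1058 and 1054 at 6 months (0.50 ± 0.10 and 0.82 ± 0.10, adjusted p = 0.000573 and 4.05e-06), and was at 1102 ± 53.6 at 24 months. The phosphate exporter Xpr1 rose in the same steps (0.29 ± 0.10 and 0.37 ± 0.10, adjusted p = 0.0265 and 0.00439).

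The magnesium carrier Slc41a2 kept overlapping values at P18 (118, 151 and 146) and P75 (163, 137 and 159) and stood at 369, 278 and 332 at 6 months (1.08 ± 0.14, adjusted p = 1.17e-05). Slc41a1 rose from 923, 881 and 870.0 at P75 to 1304, 1298 and 1169.7 at 6 months (0.49 ± 0.09, adjusted p = 0.000169) and fell to 1022, 1087 and 1102 at 24 months (-0.23 ± 0.09, adjusted p = 0.0668). Its first rise did not hold without P18 replicate 1 or 3 or P75 replicate 1 or 2 (adjusted p 0.118 to 0.244), nor its late fall without 6-month replicate 1 or 2 or 24-month replicate 1 or 2 (adjusted p 0.137 to 0.191). Slc34a3 was low at every age, with 7.13, 1.13 and 5.02 at P18 and 7.01, 17.6 and 17.7 at P75 (1.58 ± 0.46, adjusted p = 0.0121). Among 9 other magnesium transport genes 5 rose from P18 to P75, and 3 rose and 1 fell from P75 to 6 months. The shares called were 55.6% and 44.4%, beside 48.8% and 60.6% of all genes tested. Cnnm2 rose in both steps, from 167 to 257 and 384, and the channel kinase Trpm7 rose from 730.4 to 1258 and then fell to 817 (-0.62 ± 0.12, adjusted p = 0.000309).

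Over the whole span from P18 to 24 months, 58 members rose and 4 fell (69% of all genes tested were called, 34.7% up and 34.3% down). Of the members that rose, 37 did so more than 2-fold (14.5% of all genes), and 1 of those that fell, Slc9a3r2, passed 2-fold (3.98%). The libraries of P18 and 24 months did not overlap for 60 members (66.6% of all genes). The 4 that fell were Slc9a3r1, Slc9a3r2, Slc26a6 and Slc39a5. Without P18 replicate 3, 58 rose and 7 fell. Set against P75, 24-month myelin had 51 members up and 3 down (54.9% of all genes called, 28.8% up and 26.1% down), with a median log2 change of 0.57 beside -0.0038 over all genes. More than 2-fold up were 6 (5.1% of all genes up and 0.943% down), namely Slc4a10, Slc4a11, Slc24a4, Slc39a2, Slc39a6 and Slc41a3, the last named for this change alone. The libraries of these ages did not overlap for 55 members (57.5%). These long comparisons use the same libraries as the consecutive steps.

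Of all 47 partner genes listed (kinases, carbonic anhydrases, cofactors, mitochondrial calcium handling, zinc buffering, magnesium transport and phosphate export), 45 were tested, of which 15 rose and 6 fell from P18 to P75, 15 rose and 8 fell from P75 to 6 months, and 7 rose and 2 fell between 6 and 24 months. In these steps 48.8%, 60.6% and 29.3% of all genes tested were called, each above the share of the partner genes. Of the 14 members below the minimum mean, Slc9a10 had no read in any library, where a count of 0 allows up to 3 reads, and the other 13 had 6 to 113 reads over the 12 libraries together. They are Slc12a1 and Slc12a3 of the kidney, Slc34a1 and Slc34a2 of kidney and lung, Slc30a2 and Slc30a8 of secretory glands and the pancreas, Slc26a3, Slc26a5, Slc26a7 and Slc26a9, Slc24a1 of rods, and Slc4a9 and Slc9a3. They were tested only in the alternative without a filter on low values, which called 65 of 80 members from P18 to 24 months. Slc26a7, singled out after its values were seen, had no read in any P75 library, and at 6 months its normalized read count was 8.78 ± 2.58 (n = 3, SD).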

How the data were processed

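RNA of the myelin-enriched fraction was sequenced in 12 libraries, 3 at each of 4 ages. According to the submitters' processing notes and the study's methods, the authors aligned reads to mm9 with TopHat2 (2.0.8 in the notes), processed alignments with SAMtools (0.1.19), counted reads per gene with HTSeq (0.5.4p1) and scaled each library by its DESeq size factor. The deposited values are this normalized read count per gene, a signal without length correction, and all of them came out as whole reads (within 0.1 read) once divided by the value of 1 read in the library. In 3 libraries 1 read was worth 0.991 to 1.004, so close to 1 that whole reads there are harder to tell from rounded values, which bears on the edgeR and DESeq2 alternatives only. Counting precision is set by 20299052 to 27214385 reads on genes per library. Limits set by a count of 0 cover counting error only.

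Genes with a mean of at least 10 were tested with limma (3.58.1, R 4.3.3; trend, two-sided) on log2(normalized read count + 1), in 1 fit over the 12 libraries with age alone in the design, and Benjamini-Hochberg adjusted p-values under 0.1 over all 14634 genes were called. Ages were taken from the labels, which give no batch. The named members were the 3 highest means of each group, those past 2-fold with a mean over 100 in a consecutive step, and the largest called rise and fall of each group and step. Other members are named where a count singles them out, after their values were seen, and 3 members, counted with the rest, are not reported here by name. The members, gene lists and comparisons were chosen with earlier results of these data known, and no p-value was adjusted over a list alone. Levels per kilobase used merged exon lengths of the mm9 annotation.

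Alternatives were pseudocounts of 0.5 and 10, no filter, a mean over 100, only the 2 ages compared, a replicate block, equal library totals, quantile normalization, a false discovery rate of 0.05, the omission of each library, and edgeR (4.0.16) or DESeq2 (1.42.0) fitted to the recovered reads. Same-numbered libraries of P75 and 6 months deviated together (r = 0.16, 0.10 and 0.19 across genes). The numbers come from the titles and belong to different mice, and the blocked value is given where it ended a call. On simulated counts for P18 against P75 over 14634 genes, limma recovered 99.5% of 200 genes changed 2-fold and called 19 unchanged genes. Only 2-fold changes were simulated, in genes drawn from above a higher mean than the filter of 10, and all genes had the same simulated spread. The recovery of smaller changes, or of changes in genes with lower levels or a wider spread, is not given by this. Python 3.11.15 with pandas 2.3.3, numpy 2.4.6 and matplotlib 3.10.9 was used for tables and figures.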

Additional observations from a re-analysis of the deposited data

How the results depend on the processing

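The 5 counts over all tested members and the changes of the named members were recomputed under the alternatives, and none reversed, while counts by group were recomputed with edgeR and DESeq2 alone. The count between 6 and 24 months, 18 (15 up, 3 down), was 9 (6 up, 3 down) with every library scaled to the same total and 9 (9 up, 0 down) at a false discovery rate of 0.05, and leaving out 1 library moved it between 7 and 23. The cause was not tested. The other counts ranged, with 1 library left out, from 40 to 47 (P18 to P75), 41 to 51 (P75 to 6 months), 62 to 65 (P18 to 24 months) and 51 to 56 (P75 to 24 months). With the replicate block they were 45, 48, 20, 62 and 55 in the order P18 to P75, P75 to 6 months, 6 to 24 months, P18 to 24 months and P75 to 24 months. Outside P75 and 6 months the replicate numbers did not pair the libraries in consecutive steps (r from -0.21 to -0.03). Of 66 called changes of named members in the 3 steps, 44 kept their call in every setting and 22 lost it in at least 1. Quantile normalization moved the median change of all genes from P18 to 24 months to -0.12 and that of the members to 0.89. Further single calls were lost for Slc39a5 between 6 and 24 months with a pseudocount of 10 or quantile normalization, Slc41a1 from P18 to P75 and Slc9a3r1 from P75 to 6 months in a fit of only the 2 ages, Slc4a4 from P75 to 6 months without a filter, and Slc9a4 from P75 to 6 months with quantile normalization (adjusted p 0.1 to 0.199). The 14 members below a mean of 10 entered only the alternative without a filter, where 13 of them were tested, and with 3 libraries per age the step from 6 to 24 months rests on few libraries, as its range shows.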
